A study of Ovis aries with 6 samples.

Results

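The 10 genes described here encode enzymes of glycolysis and of the lactate step that follows it: HK2, GPI, PFKM, ALDOA, TPI1, PGK1, PGAM2, ENO3, LDHA and LDHB. They were chosen by name from the 23144 genes of the count table. The table lists 8 of them under these symbols. PFKM is listed as LOC443489 and ENO3 as LOC443086. Both were matched through their RefSeq gene numbers, and the BLAST symbols in the table are the same. All 10 passed the filter for low counts. The steps between TPI1 and PGK1 and between ENO3 and the LDH genes are those of GAPDH and PKM, which are given beside the set for the sake of the order.

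Glycolysis splits glucose into pyruvate in the cytosol and yields ATP without oxygen. Fast-contracting muscle fibres rely on it more than slow fibres, which burn more fat and pyruvate in their mitochondria. Lactate dehydrogenase interconverts pyruvate and lactate. It is a tetramer of the muscle-type subunit of LDHA and the heart-type subunit of LDHB, and LDHB is known as the subunit of oxidative tissues. Several steps have a muscle isoenzyme, here PFKM, ALDOA, PGAM2 and ENO3.

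The animals were 1-year-old females of 2 breeds, 3 of the Qianhua Mutton Merino (QHMM) and 3 of the Small Tail Han (STH). They shared their environment and had free access to food and water, and the tissue was the longissimus dorsi. No treatment is described, but live weight before slaughter was measured after a fast. QHMM is a mutton and wool breed made by crossing South African Mutton Merino with Northeast Fine-wool sheep, and STH is a traditional local breed. Each library holds the RNA of 1 animal, and the question was which transcripts differ in STH vs. QHMM. Poly(A) RNA was sequenced on an Ion Proton instrument, and 10982191 to 14334544 reads per library were counted on genes. On the second principal component, which held 19.1% of the variance, the other 4 libraries were separated from QHMM replicate 2 and STH replicate 3. Their TMM factors, which correct library size for composition, were 0.852 and 0.853, against 1.01 to 1.20 in the others.

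The 10 transcripts together took 4.26% to 5.32% of each QHMM library and 3.63% to 4.17% of each STH library. The 95% Wilson intervals of these shares have half-widths of 0.0122 percentage points or less and cover counting error only. Levels of different genes are compared in RPKM, reads per kilobase of gene and per 1e6 reads counted on genes. The levels spanned more than 3 orders of size within the pathway. ALDOA, the aldolase that cleaves the 6-carbon sugar, was the highest, with 13759 ± 2255 RPKM (mean ± SD, n = 6). ENO3, the muscle enolase, followed with 6815 ± 731, and PGAM2, the muscle phosphoglycerate mutase, with 2727 ± 604. These 3 held ranks 1, 2 and 3 in all 6 libraries.

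LDHA had 1488 ± 436 RPKM (n = 6), TPI1 1197 ± 477, PFKM 1086 ± 247, GPI 601 ± 335 and PGK1 584 ± 302. Neighbours among these 5 did not differ beyond the SD of their log2 ratio over all 6 libraries, which includes the breed difference. LDHA was above TPI1 in all 3 STH libraries and 1 QHMM library. PFKM was above GPI in all 3 STH libraries and 2 QHMM libraries. TPI1 was above PFKM in all 3 QHMM libraries and below it in all 3 STH libraries. GPI and PGK1 were nearly level, with GPI the higher in 2 of 6 libraries. LDHB, with 78.7 ± 29.8 RPKM, and HK2, with 7.10 ± 2.33, held the last 2 ranks in every library. HK2, the hexokinase known as insulin-responsive, was therefore the scarcest of the set, and LDHB stood 11-fold above it on average.

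**Figure D1:**
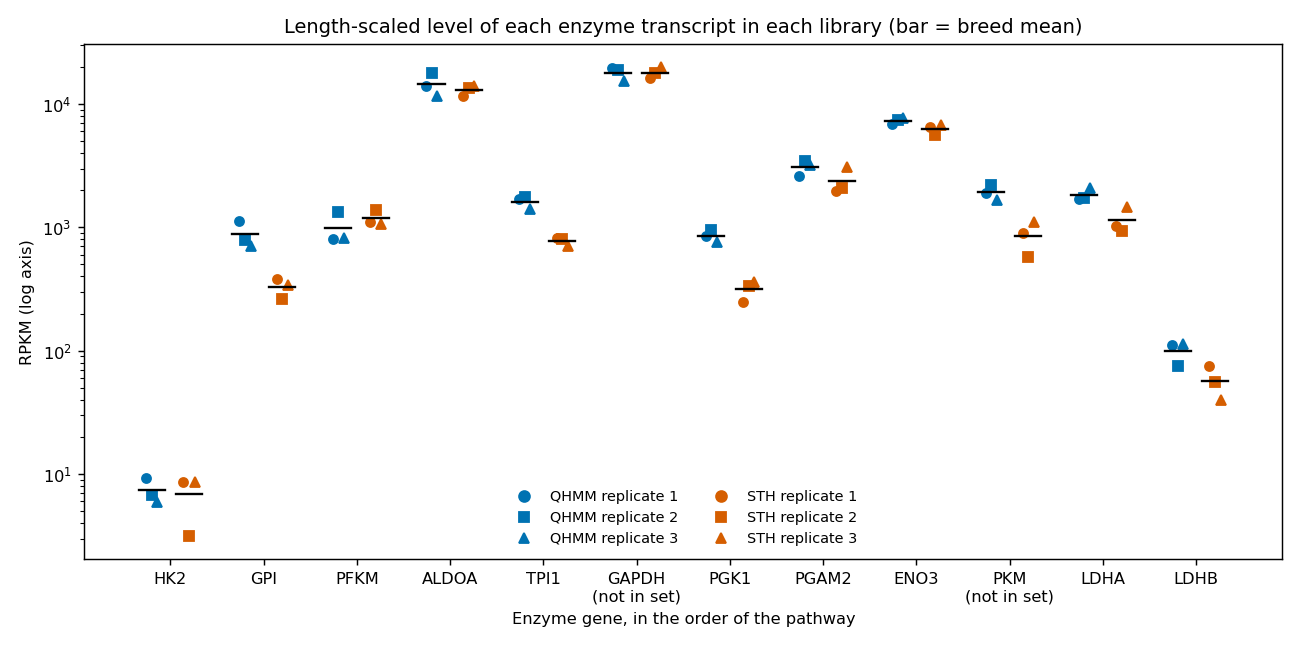
RPKM of each enzyme transcript on a log axis, in pathway order, with QHMM libraries in blue, STH libraries in orange and the breed mean as a bar. GAPDH and PKM, which are not members of the set, fill the open steps; ALDOA, GAPDH and ENO3 form the top in every library, and the breeds do not overlap at GPI, TPI1, PGK1, ENO3, PKM and LDHA.

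For the comparison of breeds, counts were normalized by TMM, and a gene was called when its FDR from edgeR's quasi-likelihood F test was below 0.05 over 12506 tested genes and its change exceeded 1.5-fold. Of the 10 enzymes, 4 were called, all down-regulated in STH, namely GPI, TPI1, PGK1 and LDHB. Over all tested genes, 3.45% were called, 1.83% down-regulated and 1.62% up-regulated. The other 6 enzymes were not called. The fitted log2 fold change (log2FC, STH over QHMM) was below 0 for 9 of the 10, and the median was -0.58, against 0.02 over all tested genes. An unadjusted p below 0.05 was reached by 5 of the 10, and by 19.2% of all tested genes. The libraries of the breeds did not overlap for the same 4 genes, where 11.7% of all tested genes did not overlap with lower values in STH. In RPKM, which is not corrected by TMM, ENO3 and LDHA did not overlap either (6703 in the highest STH and 6858 in the lowest QHMM library for ENO3, 1465 and 1695 for LDHA), whereas LDHB overlapped, with 75.8 in STH replicate 1 and 75.1 in QHMM replicate 2.

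GPI, glucose-6-phosphate isomerase, turns glucose-6-phosphate into fructose-6-phosphate. Replicates 1, 2 and 3 of QHMM gave 29452, 24598 and 17955 normalized counts, and those of STH gave 8364, 6221 and 10525, the order kept below. Every STH library lay below every QHMM library, and the lowest QHMM value was well above the highest STH value. The level was 2.87-fold lower in STH (log2FC = -1.52, SE 0.30, FDR = 0.0248). HK2, which phosphorylates glucose one step before, had 408, 350.3 and 255 normalized counts in QHMM and 319, 126 and 449 in STH. STH replicate 3 was the highest of all 6 and STH replicate 2 the lowest, and the log2FC was -0.18 (SE 0.39, FDR = 0.848). Without STH replicate 2 the sign turned, to 0.17.

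PFKM encodes the muscle subunit of phosphofructokinase, the main control point of the pathway. In QHMM it had 31442, 61923 and 31531 normalized counts, and in STH 36528, 49713 and 48950.4. QHMM replicate 2 exceeded all other libraries, and the 2 remaining QHMM libraries lay below all of STH. The log2FC of 0.11 (SE 0.32 and FDR = 0.888) was not past the threshold and lay between -0.07 and 0.52 with 1 library left out. It fell below 0 without QHMM replicate 1 or QHMM replicate 3. ALDOA had 264435, 397449 and 215859 normalized counts in QHMM and 184680.5, 232517 and 309632 in STH. The breeds overlapped (log2FC = -0.27, SE 0.33, FDR = 0.701), and the log2FC was 0.02 without QHMM replicate 2.

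TPI1, triosephosphate isomerase, interconverts both 3-carbon products of aldolase. It had 19971, 24493 and 16134 normalized counts in QHMM and 8118, 8658 and 9940.4 in STH. The STH animals lay close together and all below QHMM. TPI1 was 2.27-fold lower in STH (log2FC = -1.18, SE 0.26, FDR = 0.0376). The table also lists LOC101103815, described as like triosephosphate isomerase, whose reads made up 12.8% to 17.6% of the sum of the pair. Its log2FC was -1.09 (SE 0.28, FDR = 0.0603), and reads of the pair may have been split by the counting. With the counts of such copies added to their genes, TPI1 had -1.19 and was still called.

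**Figure D2:**
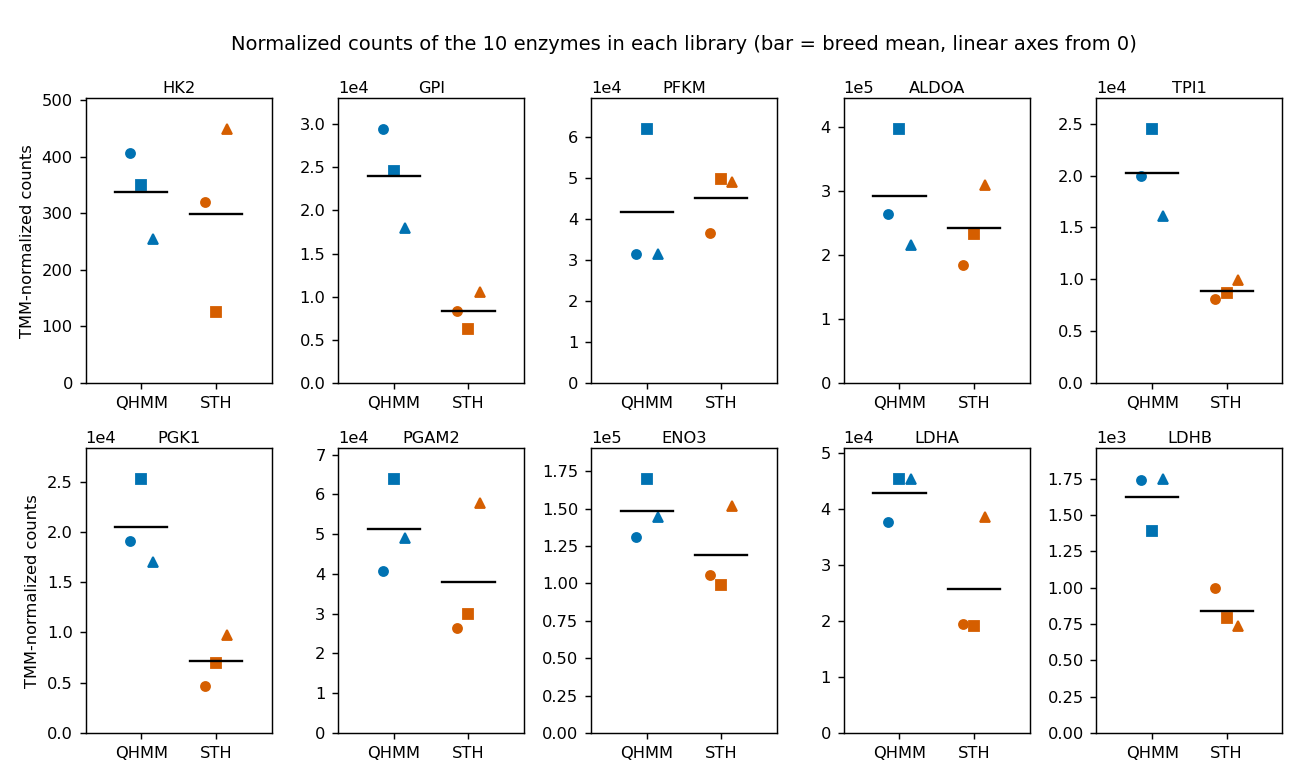
TMM-normalized counts of each of the 10 enzymes, 1 panel per gene with its own linear axis from 0; circles, squares and triangles are replicates 1, 2 and 3, QHMM in blue and STH in orange, and bars are breed means. The breeds are apart in the panels of GPI, TPI1, PGK1 and LDHB and overlap in the other 6.

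PGK1, phosphoglycerate kinase, catalyses the first step of the pathway that yields ATP. It had 19089, 25263 and 17004 normalized counts in QHMM and 4705, 6945 and 9692 in STH. No STH library reached the level of a QHMM library, although the STH animals differed among themselves by an SD of 0.52 on the log2 scale. The log2FC was -1.52 (SE 0.32, FDR = 0.0302), which equals a 2.87-fold lower level. PGAM2 and ENO3 catalyse the steps after it. PGAM2 had 40716, 63922 and 49169.6 normalized counts in QHMM and 26411, 29915 and 57797 in STH (log2FC = -0.43, SE 0.34, FDR = 0.543). ENO3 had 131145, 169807 and 144194 in QHMM and 105776, 98718 and 152021 in STH (log2FC = -0.32, SE 0.28, FDR = 0.582). For both, STH replicates 1 and 2 lay below all QHMM libraries and STH replicate 3 lay among them in these counts. In RPKM, STH replicate 3 lay below all QHMM libraries for ENO3 but not for PGAM2.

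LDHA had 37755, 45371 and 45449 normalized counts in QHMM and 19437, 19218 and 38677 in STH. As for ENO3, STH replicate 3 lay among the QHMM libraries in these counts but below all of them in RPKM. The normalized count of STH replicate 3 exceeded that of QHMM replicate 1, and the log2FC of -0.73 (SE 0.32 and FDR = 0.243) was not called. Without STH replicate 3 the log2FC was -1.15 and the gene was called. LDHB had 1741, 1388 and 1748 normalized counts in QHMM and 998, 790.2 and 735 in STH. All STH libraries were below all QHMM libraries, STH replicate 3 being the lowest (log2FC = -0.95, SE 0.22, FDR = 0.0459). LDHB was thus the called gene nearest to the FDR threshold. Of 3 other genes described as like LDHB, the most counted, LOC101123148, had a log2FC of -0.68 (SE 0.25 and FDR = 0.168), and together they held 8.29% to 10.8% of the summed reads.

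With all 6 libraries, the same 4 genes were called by DESeq2 (6.88% of all genes called) and with upper-quartile normalization (3.25%). They were also called without a filter on low counts (4.56%) and with at least 10 counts required in every library (3.95%). The same held with robust dispersions (3.49%), without the 20 most abundant genes (3.42%) and with copies added (3.42%). Without a minimum fold change (3.45%) they stay called by construction, since this only loosens the rule. Limma-trend on log2(RPKM + 1) or log2(RPKM + 0.1) called GPI, TPI1 and PGK1 (3.11% and 2.94% of genes), and PGK1 alone without a filter (0.442%). With replicate number added as a blocking term, GPI and PGK1 were called (3.65%). None was called with TREAT, which tests against the minimum fold change (0.84%), or at an FDR of 0.01 (0.328%).

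The calls changed when single libraries were left out. Such fits also hold fewer animals, and the part of a given library cannot be told apart from that of the smaller sample. With 1 library left out, 0 to 4 of the 10 enzymes were called, where 1.03% to 4.21% of all tested genes were called. The number was 0 without QHMM replicate 1 (1.03% of genes called), QHMM replicate 2 (1.61%) or STH replicate 2 (1.42%). GPI alone was called without QHMM replicate 3 (1.17%), and GPI and LDHB without STH replicate 1 (4.21%). Without STH replicate 3 (2.56%) 4 were called, with LDHA among them and LDHB not. Without both QHMM replicate 2 and STH replicate 3, an alternative chosen after the data were seen, none of the 10 was called and 0.0864% of the tested genes were, while the fitted values of GPI, TPI1, PGK1 and LDHB were -1.71, -1.11, -1.64 and -0.97.

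**Figure D3:**
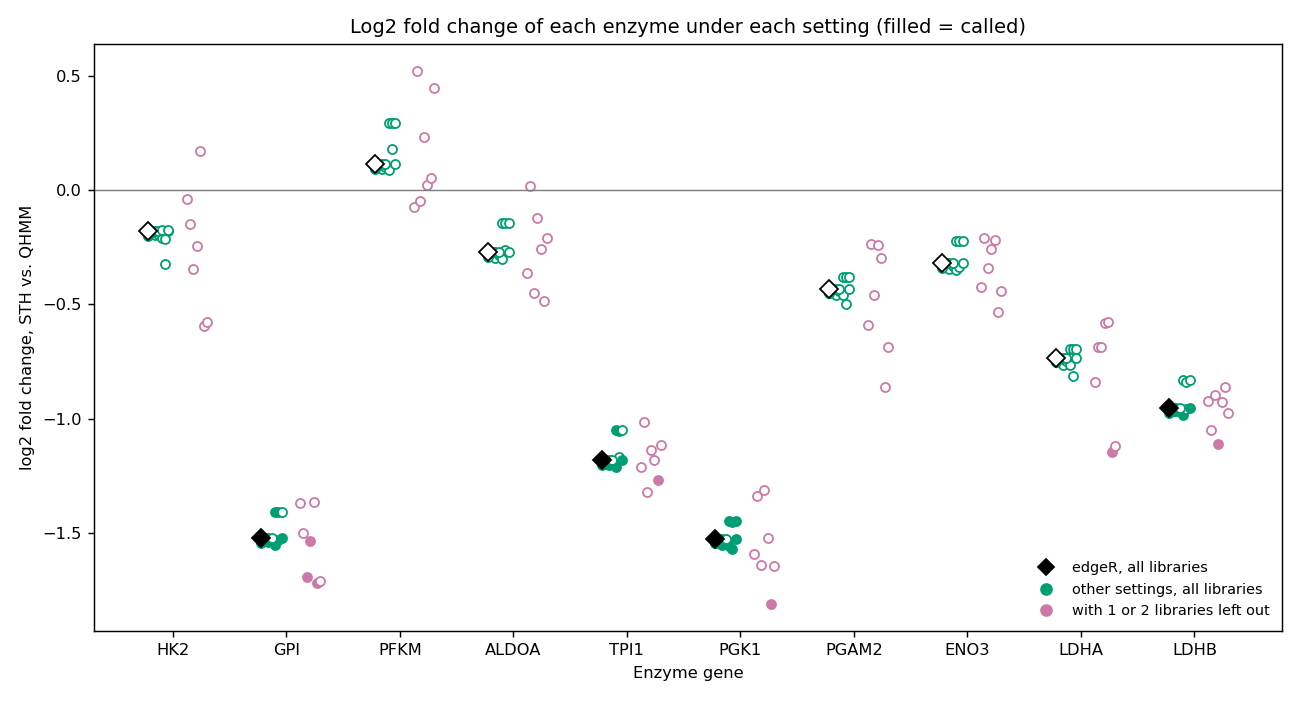
Log2 fold change of each enzyme in STH vs. QHMM under each setting, with the edgeR fit as a black diamond, other settings with all libraries in green and fits with 1 or 2 libraries left out in pink; filled symbols were called. GPI, TPI1, PGK1 and LDHB stay between -1.81 and -0.83, whereas HK2, PFKM and ALDOA cross 0 when 1 library is left out.

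GAPDH and PKM, which fill the gaps in the set, differed from each other. GAPDH, glyceraldehyde-3-phosphate dehydrogenase, had 314057, 356115 and 240754 normalized counts in QHMM and 218493, 261155 and 375522 in STH. The ranges overlapped widely (log2FC = -0.09, SE 0.31, FDR = 0.906), and the log2FC was 0.0047 with limma-trend on RPKM. GAPDH pseudogenes in the table held 6.90% to 7.76% of the summed reads. PKM, the pyruvate kinase of muscle, had 58671, 82159 and 51240.1 in QHMM and 23885, 16294 and 40612 in STH. All STH libraries were below QHMM, but the log2FC of -1.25 (SE 0.36 and FDR = 0.0872) missed the FDR threshold. It was called by DESeq2, by edgeR without a filter, by limma-trend on filtered RPKM, and without STH replicate 3, with -1.67.

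**Figure D4:**
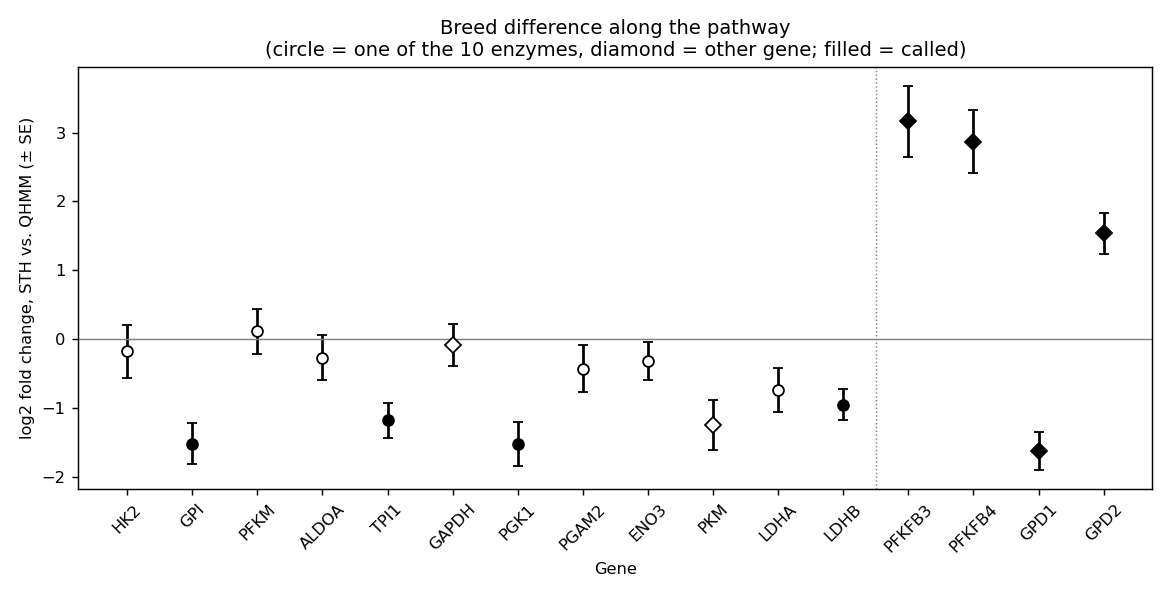
Log2 fold change in STH vs. QHMM with its SE (edgeR), in pathway order to the left of the dotted line and for regulators and shuttle enzymes to the right; circles are the 10 enzymes, diamonds other genes, and filled symbols were called. The values run from -1.52 at GPI and PGK1 to 0.11 at PFKM, while PFKFB3 and PFKFB4 lie near 3.

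Ratios of neighbouring steps within a library do not depend on how libraries are scaled. They were computed from RPKM after the values above were seen, for 11 pairs that share genes and are not independent. For 8 of the 11 the breeds did not overlap, where 24.7% of single tested genes did not overlap in either direction, and no such share was computed for ratios of other genes. Of these 8 ratios, 6 hold a called gene, and ENO3 to PKM holds PKM, for which the breeds did not overlap either. The count is therefore largely a restatement of differences in single genes. PFKM to ALDOA holds no such gene. With 3 animals against 3, the exact two-sided permutation test cannot give a p below 0.1, and those 8 had p = 0.1 (adjusted p = 0.1375 over the 11). The ratio of GPI to PFKM was 1.40, 0.595 and 0.853 in QHMM and 0.343, 0.188 and 0.322 in STH, a 3.25-fold difference of the mean log ratios. The GPI transcript was thus 0.595 to 1.40 times as abundant per length as PFKM in QHMM and at most 0.343 times in STH.

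The ratio of GAPDH to PGK1 was 23.2, 19.9 and 19.97 in QHMM and 65.5, 53.0 and 54.6 in STH, and was 2.74-fold higher in STH. ALDOA to TPI1 was 8.28, 10.2 and 8.37 in QHMM and 14.2, 16.8 and 19.5 in STH. In both ratios the 3 QHMM libraries lay close together. PGAM2 to ENO3 was 0.378, 0.458 and 0.415 in QHMM and 0.304, 0.369 and 0.463 in STH, and the breeds overlapped (exact permutation p = 0.5). PKM to LDHA also overlapped, with exact permutation p = 0.2, and so did LDHA to LDHB, with p = 0.9.

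**Figure D5:**
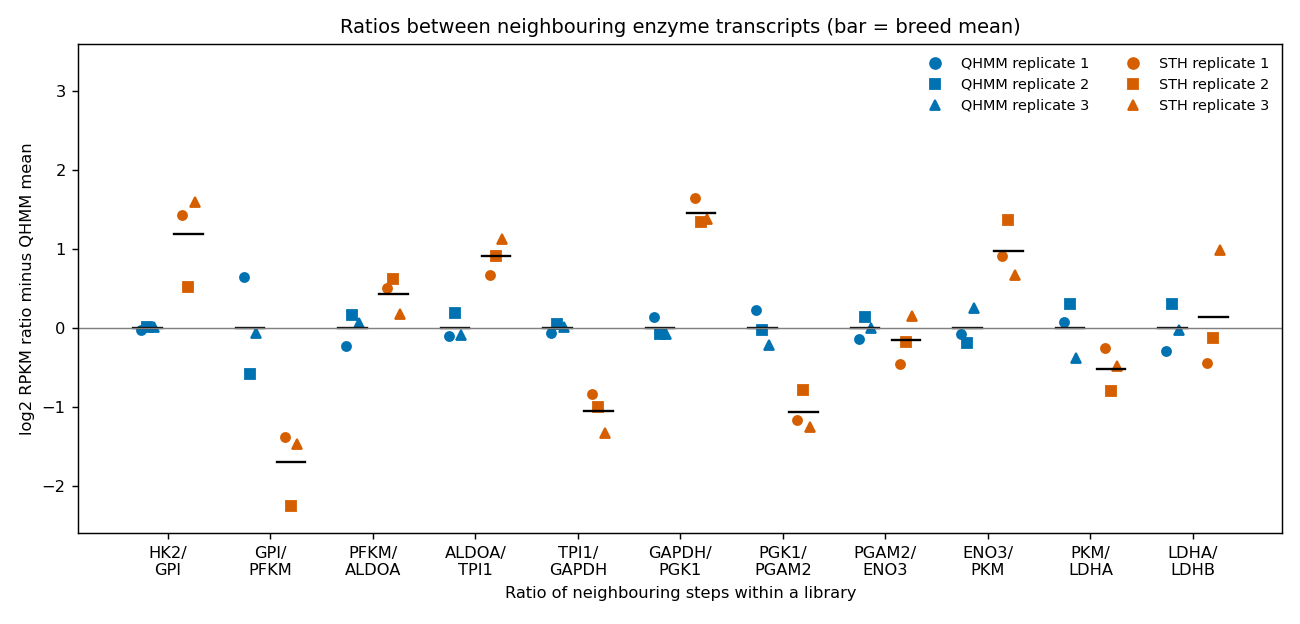
Log2 RPKM ratio of each enzyme transcript to the next within a library, minus the QHMM mean of that ratio; symbols are single libraries, QHMM in blue and STH in orange, and bars are breed means. The breeds are apart in 8 ratios and overlap for PGAM2/ENO3, PKM/LDHA and LDHA/LDHB.

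Among the 45 pairs of the 10 enzymes, the courses over the 6 libraries were most alike for PGAM2 and ENO3. Their centred log2 normalized counts differed by a root mean square of 0.21, as did those of PGAM2 and LDHA. ALDOA and ENO3 followed with 0.23. The pair TPI1 and PGK1 differed by 0.30 and GPI and PFKM, the most unlike, by 0.96. These distances describe 6 libraries and include the breed difference. Outside the lists, the 3 of 7072 genes nearest to the mean course of GPI, TPI1, PGK1 and LDHB were CD93, DHDH and ADAM19, at 0.14, 0.15 and 0.16.

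The muscle isoenzyme carried nearly all transcript of its family at 3 steps. PFKM took 98.4% to 99.3% of the summed RPKM of its family, ENO3 98.02% to 98.8%, and PGAM2 98.3% to 99.4% of the sum with PGAM1. Similar PGAM1 pseudogenes held 41.7% to 52.8% of the PGAM1 reads summed with theirs. PFKL, PGAM1 and ENO1, the next isoenzymes in these families, had log2FCs of 0.06, 0.16 and -0.51, with FDR from 0.269 to 0.925. In normalized counts the breeds overlapped for PFKL and PGAM1, while all STH libraries were below QHMM for ENO1.

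Hexokinase was the exception. HK2 took 27.8%, 25.6% and 25.9% of the hexokinase RPKM in QHMM and 31.0%, 18.4% and 40.9% in STH, and HK1 was the more abundant in each library. HK1, the widely expressed hexokinase, had 1066, 1023 and 737 normalized counts in QHMM and 706, 554 and 660.4 in STH. Its log2FC of -0.56 (SE 0.22 and FDR = 0.203) was not called, though the breeds did not overlap. The exact permutation p of the 4 family shares ran from 0.2 to 0.7 (adjusted p = 0.7 for each), in a design that cannot give a p below 0.1. The PGAM2 share was 99.2% ± 0.336 in QHMM and 98.7% ± 0.457 in STH (SD, n = 3 each), and its difference of -0.50 percentage points kept its sign with any 1 library left out.

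LDHB made up 6.18%, 4.19% and 5.21% of the summed RPKM of LDHA and LDHB in QHMM and 6.84%, 5.55% and 2.64% in STH. The mean was 5.20% ± 0.997 in QHMM and 5.01% ± 2.15 in STH (SD, n = 3 each), with exact permutation p = 1. The lowest and the highest share were both from STH animals. Leaving out 1 library moved the difference between -1.10 and 0.999 percentage points. LDHD, the mitochondrial D-lactate dehydrogenase, had 236, 341 and 273 normalized counts in QHMM and 167, 151 and 142 in STH, a log2FC of -0.88 (SE 0.23 and FDR = 0.0663). The breeds did not overlap, and of 14 other settings with all libraries only DESeq2 called LDHD (FDR = 0.0286).

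The rest of the pathway was taken from a list of 36 isoenzymes, regulators and gluconeogenic or shuttle enzymes. Of these, 34 were found in the table and 25 were tested. PFKFB3, PFKFB4 and GPD2 were called up-regulated and GPD1 down-regulated, and 21 were not called. Of all tested genes, 1.62% were called up-regulated and 1.83% down-regulated. The breeds did not overlap for 9 with lower values in STH (11.7% of all tested genes) and 3 with higher values (13%). An unadjusted edgeR p below 0.05 was reached by 11 (19.2% of all tested genes). The median log2FC of the 25 was -0.26, against 0.02 over all tested genes. PFKFB3 and PFKFB4 make and break fructose-2,6-bisphosphate, the strongest activator of phosphofructokinase. PFKFB3 had 1431, 388 and 1063 normalized counts in QHMM and 4039, 11182 and 10644 in STH. It was 8.97-fold higher in STH (log2FC = 3.16, SE 0.52, FDR = 0.0133). PFKFB4 had 892, 2221 and 1463 in QHMM and 6442, 18623 and 8327 in STH (log2FC = 2.87, SE 0.46, FDR = 0.0128).

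Both kept their call in each of the 6 fits with 1 library left out, but not without both QHMM replicate 2 and STH replicate 3, where the values were 2.60 and 3.40. STH replicate 2, the lowest library for HK2, GPI and LDHA, had the highest counts of both. GPD1 and GPD2 are the cytosolic and the mitochondrial glycerol-3-phosphate dehydrogenase of the shuttle that carries the electrons of glycolytic NADH to the mitochondria. GPD1 had 15902, 23585 and 18138 normalized counts in QHMM and 6023, 5133 and 7518 in STH (log2FC = -1.63, SE 0.27, FDR = 0.0141). GPD2, listed as LOC443090, had 446, 524 and 592 in QHMM and 1453, 2141 and 944 in STH (log2FC = 1.54, SE 0.30, FDR = 0.0235). In these 4 genes no library of one breed reached the range of the other. GPD1 was called in 5 of the 6 fits with 1 library left out, the exception being without STH replicate 2. GPD2 was called in 2, losing its call without any QHMM replicate or without STH replicate 2.

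Markers of fibre types and other cells were read beside the enzymes. In whole muscle, fewer fibres of a type and less RNA per fibre cannot be told apart. Of all tested genes, 3.45% were called by edgeR and 6.88% by DESeq2. An unadjusted edgeR p below 0.05 was reached by 19.2%. The 8 skeletal muscle markers summed to 68395 RPKM or more in every library with 0 called by edgeR (1 by DESeq2, and 1 at an unadjusted p below 0.05), and ACTA1, skeletal alpha-actin, had a log2FC of -0.33 (SE 0.39 and FDR = 0.689). Of 13 tested slow-fibre genes, 8 were called, all down-regulated in STH, with a median log2FC of -1.34. All 13 had an unadjusted edgeR p below 0.05, and 12 were called by DESeq2. The summed RPKM of the slow-fibre genes was 17277 to 26397 in QHMM and 7570.3 to 12007 in STH. MYL2, the slow myosin light chain, had -1.44 (SE 0.31, FDR = 0.0351). Of 12 tested fast-fibre genes none was called by edgeR, 4 had an unadjusted p below 0.05 and 2 were called by DESeq2. Their median log2FC was -0.33, and the summed RPKM was 85691 to 106483 in QHMM and 74523 to 94019 in STH. TNNT3, the fast troponin T, had no read under that name in any library. Whether this reflects its expression or its annotation was not tested. MYLPF, the fast myosin light chain, had -0.34 (SE 0.31, FDR = 0.605).

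Of 7 adipocyte genes 4 were called by edgeR, all down-regulated, against 3.45% of all tested genes. An unadjusted edgeR p below 0.05 was reached by 5 (19.2% of all tested genes), and DESeq2 called 5 (6.88%). The median log2FC was -2.13, with a summed RPKM of 89.9 to 403 in QHMM and 54.9 to 164 in STH. FABP4, the most abundant of them, had a log2FC of -0.04 (FDR = 0.980). The called genes, named here after their values were seen, were ADIPOQ (-2.13, SE 0.36), PLIN1 (-2.37, SE 0.43), LEP (-4.21, SE 0.90) and CIDEC (-2.44, SE 0.56). They encode adipokines and lipid droplet proteins. LEP did not have a read in every library, so the size of its fold change is uncertain. None of the 6 connective tissue genes was called by edgeR, 3 had an unadjusted p below 0.05 and 3 were called by DESeq2. Their median log2FC was -1.06, with a summed RPKM of 503.8 to 1005 in QHMM and 297 to 608 in STH. DCN, the most abundant, had -0.45 (FDR = 0.407), and the collagens COL1A1, COL1A2 and COL3A1, named after their values were seen, had -1.30, -1.38 and -1.22. The 4 endothelial genes, summing to 119 to 195 RPKM, and the 5 immune genes, summing to 24.8 to 55.9 RPKM over all libraries, held no call by edgeR or DESeq2 and no unadjusted p below 0.05. PECAM1 had 0.04 (FDR = 0.945) and CD14 0.56 (FDR = 0.284). Of 8 blood genes listed, 3 were found and none was tested, with at most 3.62 RPKM in sum and SLC4A1 without a read. Of these lists, the slow-fibre genes had a summed RPKM that was lower in STH without overlap. The RPKM of GPI, TPI1, PGK1, ENO3, LDHA and PKM was also lower in STH without overlap. That of HK2, PFKM, ALDOA, GAPDH, PGAM2 and LDHB overlapped. The part of any of these cells in the enzyme counts was not tested.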

How the data were processed

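The authors filtered Ion Proton reads, mapped them to the sheep genome (Oar 3.1), kept unique mapped reads and deposited raw, unnormalized counts per gene. In RPKM, also made by the authors, these counts are scaled by gene length and by the library total on genes. The aligner, counter and strand setting are not given in the sources used here. All 12 per-sample columns were used, and 25 RPKM entries whose names had turned into dates were left out. Names absent from the table were matched by RefSeq gene number (assembly ARS-UI_Ramb_v3.0, no coordinates used) or, for PFKL, MYH1 and MYH2, by the BLAST symbol in the table, which gave 104 of 112 list genes.

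Counts were tested in R 4.3.3 with edgeR 4.0.16 (TMM, filterByExpr, quasi-likelihood F test, no term but breed). Calls needed a Benjamini-Hochberg FDR below 0.05 and a log2 fold change beyond 0.585 either way. EBSeq, used in the study, was not run. SEs come from the fold change and its F statistic. Normalized counts are counts divided by the TMM-corrected library size and multiplied by the median library size. The scripts were tested on simulated data. Alternatives used DESeq2 1.42.0 and limma 3.58.1. Shares and ratios used SciPy 1.17.1.

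The enzymes and lists were chosen with earlier results of these data known, so p-values are adjusted over all genes only. Genes named are the 10 enzymes, GAPDH, PKM, called genes of the pathway list, the most abundant further isoenzyme of each family, the most abundant tested gene of each marker list and the 3 genes nearest in course to the called enzymes. The LOC copies were named after their values were seen. The share of ALDOA in its family, which was planned, is not reported here.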

Additional observations from a re-analysis of the deposited data

How the results depend on the processing

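The 10 enzymes were examined in 14 alternatives with all libraries and in 6 that left out 1 library. Of the 14, 13 were planned and 1, adding the counts of copies, was chosen after seeing the data. In those 14 none of the 10 enzymes changed sign. At an FDR of 0.01, without a minimum fold change, with TREAT and with robust dispersions, the fold changes were those of the edgeR fit. Those alternatives therefore say nothing of the sign. ALDOA and ENO3 have no value without the 20 most abundant genes. Of the enzymes, 2 were called with the replicate block, 1 with limma-trend on unfiltered log2(RPKM + 1), and 0 at an FDR of 0.01, with TREAT, which tests against the minimum fold change, or without both QHMM replicate 2 and STH replicate 3. Of the other pathway genes, where 4 were called, these numbers were 7 without a filter on low counts, 2 with limma-trend on unfiltered RPKM, 2 with TREAT and 0 at an FDR of 0.01 or without both libraries. Over all genes, 432 were called, against 956 with DESeq2, 806 without a filter, 105 with TREAT, 78 with limma-trend on unfiltered RPKM, 41 at an FDR of 0.01 and 11 without both libraries. The cause was not tested. At an FDR of 0.01 and with TREAT, fewer genes pass by construction.

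With 1 library left out, 0 to 4 enzymes, 2 to 5 other pathway genes and 131 to 535 genes in all were called. The log2 fold change then ranged from -0.59 to 0.17 for HK2, from -0.0737 to 0.52 for PFKM, from -0.485 to 0.0169 for ALDOA, from -0.34 to 0.0541 for GAPDH, from -0.11 to 0.25 for PFKL, from -0.0163 to 0.30 for PGAM1, from -0.0594 to 0.12 for PECAM1 and from -0.80 to 1.09 for FABP4. GAPDH had 0.0047 with limma-trend on RPKM. FABP4 had 0.27 with limma-trend on log2(RPKM + 1), 0.28 on log2(RPKM + 0.1) and 0.15 with the replicate block, and PFKL had -0.06 without both libraries. With limma-trend on RPKM, which changes the scaling, the test and the genes tested together, the median log2 fold change of all genes moved from 0.02 to 0.12 (0.14 with the smaller pseudocount), and the up-regulated share of calls from 47.0% to 61.3% (61.9%, and 69.2% without a filter).

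The sample labels do not say that animals of the same replicate number were paired. Deviations of same-numbered libraries from their breed means correlated across genes at 0.23, -0.04 and -0.13 for numbers 1, 2 and 3. The highest correlation between libraries of different breeds was 0.29, for QHMM replicate 2 with STH replicate 3. Whether animals shared a batch was not tested. The replicate block kept GPI and PGK1 called, not TPI1 and LDHB, and called 457 genes in all. The family shares differed between breeds (STH minus QHMM, in percentage points) by -1.75 to 9.50 for HK2, by -0.0745 to 0.385 for PFKM, by -0.752 to -0.31 for PGAM2, by -0.00497 to 0.378 for ENO3 and by -1.10 to 0.999 for LDHB when 1 library was left out.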
